A study of Mus musculus with 6 samples.

Results

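The 5 genes of the mouse Rel family, Nfkb1, Nfkb2, Rel, Rela and Relb, were followed across 6 RNA sequencing libraries of regulatory T cells (Tregs). They were taken by gene symbol from the 55573 gene identifiers counted, and each matched 1 identifier. Tregs are CD4 T cells that keep other immune cells in check. They were sorted from the spleen of bone marrow chimeras described as bi-parental, animals in which transplanted marrow of both parental kinds forms the blood. One group held 3 libraries of wild-type Tregs and the other 3 libraries of Tregs labelled Nfkb2-/-. All cells were rested in culture medium for a short time after sorting and no other treatment was given. The labels describe the 3 libraries of a genotype as biological repeats, without saying whether each came from 1 animal or a pool, so p-values measure the spread between these libraries. The strains, sexes and ages of donors and hosts, the design of the Nfkb2 allele and the part of the gene it removes are not given in the sources used here.

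Rel family proteins are transcription factors that bind DNA as pairs through a shared Rel homology domain. Nfkb1 and Nfkb2 encode the precursors p105 and p100, whose C-terminal ankyrin repeats hold other family members in the cytoplasm and which are processed to the DNA-binding subunits p50 and p52. Rela, Rel and Relb encode p65, c-Rel and RelB, which carry transactivation domains. In the canonical pathway, p65 and c-Rel paired with p50 are released when I-kappa-B proteins are degraded. In the non-canonical pathway, the kinase NIK triggers processing of p100, the main partner of RelB, to p52. c-Rel and p65 are known to support Treg development and identity.

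Library totals ran from 12005273 to 17278521 counts. All 8 Treg and T cell markers were counted in every library, and Foxp3, which defines Tregs, lay between 407 and 622 CPM (counts relative to the library size, with TMM scaling factors) across both genotypes. None of the 8 was called, but Ikzf2 was higher in Nfkb2-/- without overlap (722 to 823 against 436 to 539 CPM) and Il2ra lower (410 to 496 against 525 to 635 CPM). Wild-type replicate 1 stood apart, with log2 CPM correlating at r from 0.941 to 0.955 with the other libraries, against 0.968 to 0.991 for all other pairs (across genes, which are not independent replicates). The 14 B cell markers, all counted in every library, summed to between 534 and 599 CPM in Nfkb2-/- and to 374, 1063 and 1024 CPM in wild-type replicates 1, 2 and 3. Among them Cd79a, part of the B cell receptor, was called lower, and 12 of the 14 were lower in Nfkb2-/- without overlap. The 12 myeloid markers summed to between 107 and 159 CPM in Nfkb2-/- and between 37.4 and 103 CPM in wild type, and Siglech was at 0 in Nfkb2-/- replicate 1. Zbtb46, which was called higher, carried that difference. The other 11 summed to 19.9, 23.1 and 40.1 CPM in Nfkb2-/- replicates 1 to 3 and to 22.3, 77.8 and 20.8 CPM in wild-type replicates 1 to 3. The 6 markers of CD8 and natural killer cells summed to between 36.2 and 48.3 CPM and between 20.1 and 49.1 CPM, with Eomes called higher. Xist was between 592 and 883 CPM in Nfkb2-/- and between 1.94 and 16.5 CPM in wild type. The 4 Y-linked genes summed to 40.0, 138 and 275 CPM in Nfkb2-/- replicates 1, 2 and 3 and to between 465 and 498 CPM in wild type. Each Nfkb2-/- library thus held high Xist together with Y-linked RNA, and the Y-linked amount differed between replicates. Whether these libraries mix cells of different origin, and whether that bears on their remaining Nfkb2 RNA, was not tested. Sex-linked RNA therefore moved with genotype, and the effects of sex and genotype cannot be told apart.

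Nfkb2 RNA fell in the libraries labelled Nfkb2-/- but was not lost. Nfkb2 was at 269, 324 and 271 CPM in Nfkb2-/- replicates 1, 2 and 3, and at 558, 545 and 556 CPM in wild-type replicates 1, 2 and 3. Every Nfkb2-/- library lay below every wild-type library, and the wild-type libraries were close to identical. The coefficient of variation was 1.26% in wild type, where counting error alone would give 1.12%, and 10.9% in Nfkb2-/-, where it would give 1.64%. Nfkb2-/- replicate 2 therefore stood above the other 2 by more than counting error. Mean CPM was 288 ± 31.3 for Nfkb2-/- against 553 ± 6.99 for wild type (SD, n = 3 each), a fold of 0.520 with a 95% interval of 0.420 to 0.645 (log2 fold change -0.94, SE 0.134). By the quasi-likelihood test of edgeR, with p-values adjusted after Benjamini and Hochberg over all genes tested, adjusted p = 0.0203. Nfkb2 was the 1 of 5 Rel family genes called, against 1.42% of the 13347 genes tested (0.405% called lower and 1.01% called higher). Leaving out wild-type replicate 1 gave an edgeR adjusted p of 0.000499, in a fit that called 9.04% of all genes. Leaving out any other library gave 0.0567 to 0.176. With Y-linked level as the covariate the log2 fold change was -0.90, with a wider SE of 0.252 (edgeR adjusted p = 0.502). The Y-linked level itself differed between genotypes without overlap, and this fit called 7 of all genes tested.

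A count over a whole gene does not test a knockout label when the deleted part is unknown, since exons outside it may still be transcribed. In bulk RNA, fewer cells with a transcript and less of it per cell cannot be told apart.

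Nfkb2 (ENSMUSG00000025225) spans chr19:46304320-46312385 on the plus strand of GRCm38 and has 8 annotated transcripts. It shares 299 exonic bases with the 3' end of Psd, an exchange factor gene on the other strand, and 531 with AC114539.1, a noncoding gene that starts at the same promoter and runs the other way. Of the 4740 distinct 50-base runs in its transcripts, 14.9% also occur in those 2 genes, and the library kit does not mark strand, so such reads cannot be assigned. Psd was at 57.6, 65.0 and 53.6 CPM in Nfkb2-/- replicates 1 to 3 and at 115, 84.6 and 75.8 CPM in wild-type replicates 1 to 3. AC114539.1 was at 21.4, 22.3 and 20.4 CPM in Nfkb2-/- and at 13.3, 11.6 and 18.6 CPM in wild type. These 2 genes thus differed in opposite directions, without overlap between genotypes, but neither was called (-0.64 and 0.56 on the log2 scale, with adjusted p-values from edgeR of 0.148 and 0.277). Without wild-type replicate 1, where 9.04% of all genes were called, the edgeR adjusted p of Psd was 0.0323. The flanking genes Gbf1 and Fbxl15 were not called. Around the other members the neighbours were Manba, Slc39a8 and Gm43430 (Nfkb1), Pus10 and Papolg (Rel), Kat5 and Sipa1 (Rela), and Clasrp and Clptm1 (Relb). Of all 13 overlapping or adjacent genes 0 were called by edgeR, 5 had an unadjusted p under 0.05, and DESeq2 called 1. Of all genes tested, 13.6% had an unadjusted p under 0.05 and DESeq2 called 5.09%.

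Promoters of Rel family genes are known to hold kappaB sites, which Rel family dimers bind. The following stretches, from RefSeq promoter windows of GRCm38.p6, are shown because Nfkb2 and Rel are the 2 members whose genotypes did not overlap and whose windows hold matches to the kappaB consensus, searched by name on both strands. Capitals mark the match and distances are from the annotated start to the first base of the match.
Nfkb2 first start, 39 bases upstream, chr19:46304689-46304717, plus strand: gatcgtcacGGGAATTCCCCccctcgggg
Nfkb2 first start, 11 bases upstream, chr19:46304716-46304745, plus strand: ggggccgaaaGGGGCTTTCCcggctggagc
Nfkb2 second start, 236 bases upstream, chr19:46305449-46305478, plus strand: tccgacggcaGGAATGTCCCcacaaaagcc
Nfkb2 second start, 10 bases downstream, chr19:46305695-46305724, plus strand: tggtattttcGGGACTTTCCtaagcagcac
Rel start, 92 bases upstream, chr11:23771042-23771070, minus strand: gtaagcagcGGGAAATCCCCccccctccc

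The capitals of the first Nfkb2 stretch and of the Rel stretch each cover 2 overlapping matches. The window of the first Nfkb2 start held 3 matches, that of its second start 2, that of the remaining start 1 (the stretch 10 bases after the second start again), and that of Rel 2. The Rela window held 0, which says only that these letters are not in it. Nfkb1 and Relb had no window and were not searched. Of all 32851 promoter windows of 300 bases, 8.46% held at least 1 match, 1.22% at least 2 and 0.186% at least 3. A match is a sequence description, and gene counts do not separate the Nfkb2 starts.

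**Figure D1:**
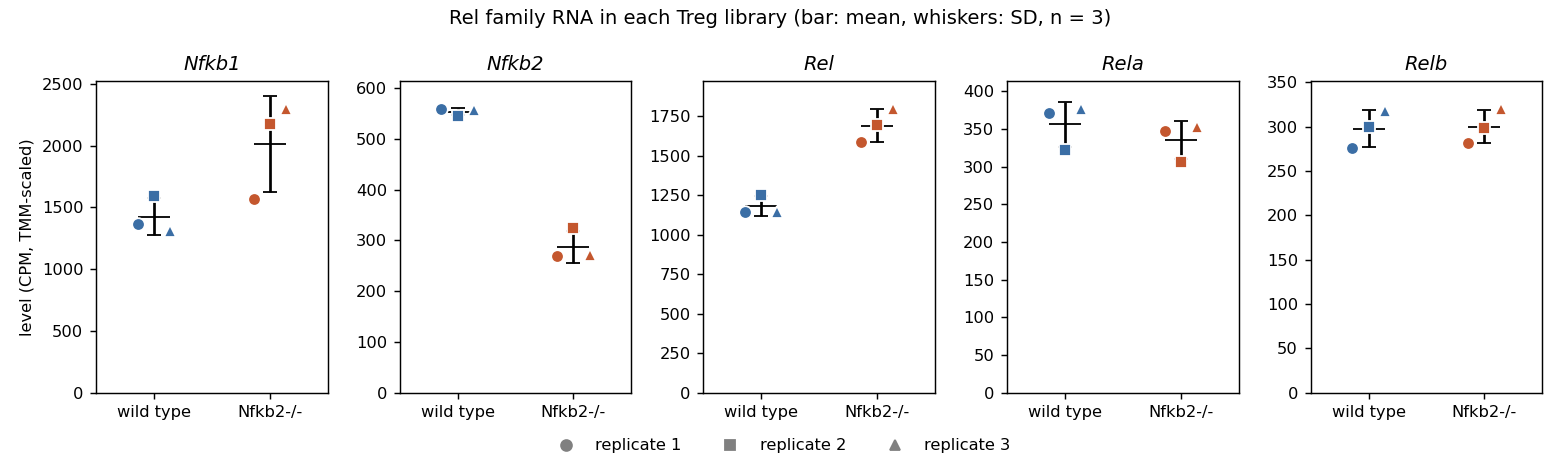
Level of each Rel family gene (y axis, CPM from 0, TMM-scaled) in the 3 wild-type and 3 Nfkb2-/- Treg libraries, with symbols for replicate numbers, a bar for the mean and whiskers for the SD. Nfkb2 separates downward and Rel upward, Nfkb1 overlaps through Nfkb2-/- replicate 1 at 1566 CPM, and Rela and Relb overlap throughout.

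Rel, which encodes c-Rel, lay above its wild-type range in each of the Nfkb2-/- libraries, but was not called. Rel (ENSMUSG00000020275, chr11:23736847-23770970, minus strand) was at 1589, 1694 and 1795 CPM in Nfkb2-/- replicates 1 to 3 and at 1147, 1255 and 1147 CPM in wild-type replicates 1 to 3. The lowest Nfkb2-/- library was above the highest wild-type library, with means of 1693 ± 103 and 1183 ± 62.4 CPM (SD, n = 3 each). The fold was 1.43 with a 95% interval of 1.13 to 1.81 (log2 fold change 0.52, SE 0.147, edgeR adjusted p = 0.161). DESeq2 gave an adjusted p of 0.00124, and edgeR without wild-type replicate 1 gave 0.0405. With the B cell marker level as a covariate edgeR gave 0.0111. These fits called more of all genes tested, 5.09%, 9.04% and 3199 of 13347, against 1.42% in the main fit. Rel was not called in the other 12 alternatives, among them the Y-linked covariate (edgeR adjusted p = 0.692) and the fits without Nfkb2-/- replicate 2 or 3 (0.537 and 0.599). Nfkb2 and Rel were the 2 of 5 members whose CPM did not overlap between genotypes, as in 20.6% of all genes tested (10.7% higher and 9.90% lower in Nfkb2-/-).

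Nfkb1, which encodes p105 and p50, had a higher mean in Nfkb2-/- with wide spread. Nfkb1 (ENSMUSG00000028163, chr3:135584655-135691547, minus strand) was at 1566, 2180 and 2294 CPM in Nfkb2-/- replicates 1 to 3 and at 1368, 1595 and 1310 CPM in wild-type replicates 1 to 3. Nfkb2-/- replicate 1 lay below wild-type replicate 2, so the genotypes overlapped. The coefficient of variation was 19.4% in Nfkb2-/-, the largest of any member in either genotype, where counting error alone would give 0.620%. The means were 2013 ± 391 and 1424 ± 151 CPM (SD, n = 3 each), a fold of 1.41 with an interval of 1.03 to 1.94 (log2 fold change 0.50, SE 0.197, edgeR adjusted p = 0.319). With the B cell marker level as a covariate the edgeR adjusted p was 0.0385, in a fit that called 3199 of 13347 genes. With the Y-linked level the log2 fold change was 0.91 (edgeR adjusted p = 0.554).

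Rela, which encodes the transactivating subunit p65, was at similar levels in both genotypes. Rela (ENSMUSG00000024927, chr19:5637483-5648130, plus strand) was at 347, 306 and 353 CPM in Nfkb2-/- replicates 1 to 3 and at 371, 322 and 376 CPM in wild-type replicates 1 to 3. In both genotypes replicate 2 was lowest, and the ranges overlapped. The fold was 0.942 with a 95% interval of 0.762 to 1.16 (log2 fold change -0.09, SE 0.132, edgeR adjusted p = 0.845).

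Relb, whose protein RelB is the partner held by p100, had the fold nearest to 1. Relb (ENSMUSG00000002983, chr7:19606217-19629438, minus strand) was at 282, 298 and 320 CPM in Nfkb2-/- replicates 1 to 3 and at 276, 299.7 and 318 CPM in wild-type replicates 1 to 3. Same-numbered libraries of the 2 genotypes were within a few CPM of each other. The fold was 1.01 with an interval of 0.825 to 1.23 (log2 fold change 0.01, SE 0.124, edgeR adjusted p = 0.983).

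**Figure D2:**
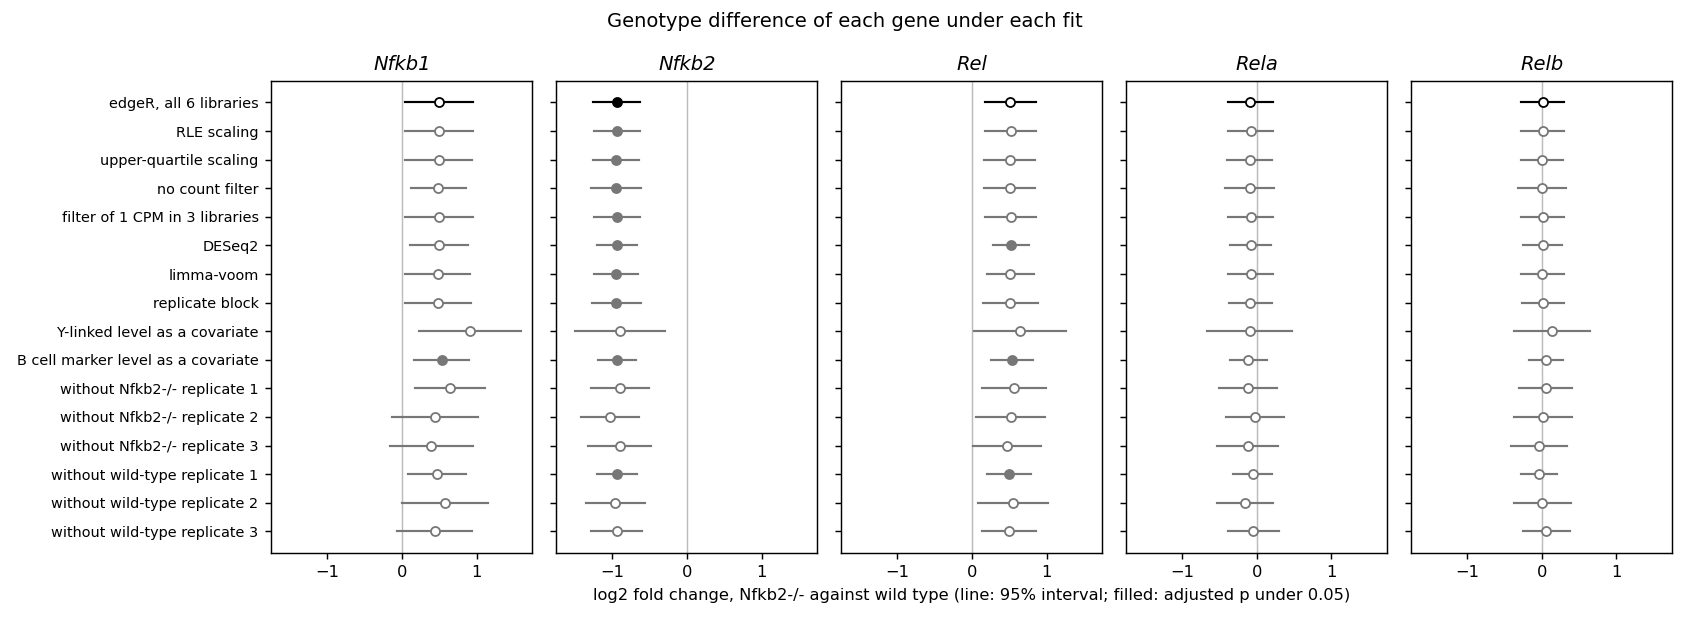
Log2 fold change of each Rel family gene, Nfkb2-/- against wild type (x axis), under the fit of all 6 libraries (black) and 15 alternatives (grey), with 95% intervals as lines and filled points where the adjusted p was under 0.05. Nfkb2 lies between -1.03 and -0.90 in every alternative and is called in 9 of 15, and Rel lies between 0.47 and 0.65 and is called in 3.

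Per unit of gene length, Rel family RNA was abundant in both genotypes. Levels of different genes were compared as RPKM, CPM per kilobase of all annotated exons merged. In wild-type Tregs Rel was highest at 158 ± 8.36 RPKM, and Nfkb2, Nfkb1 and Rela followed at 121 ± 1.52, 118 ± 12.5 and 116 ± 9.78 RPKM (SD, n = 3 each). These last 3 were not separated by their spread, and their order differed between the wild-type libraries. Relb was lowest at 76.7 ± 5.47 RPKM. In Nfkb2-/- Tregs Rel was at 227 ± 13.8, Nfkb1 at 167 ± 32.4, Rela at 109 ± 8.25, Relb at 77.2 ± 4.83 and Nfkb2 at 62.8 ± 6.84 RPKM, and this order was the same in all 3 libraries. By annotated length Nfkb2 thus moved from the middle of the family to its bottom. That length counts all annotated exons, and the part the allele removes is not known. If it removes exons, Nfkb2 values per length in Nfkb2-/- are understated, here and in the shares and ratios below. Among 13345 tested genes with a length, Rel ranked between 194 and 294 in the wild-type libraries and between 169 and 180 in Nfkb2-/-, and Nfkb2 between 263 and 372 and between 613 and 779.

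The share of Nfkb2 in the summed RPKM of the 5 genes was 20.96%, 19.8% and 20.6% in wild-type replicates 1 to 3 and 9.98%, 10.8% and 8.60% in Nfkb2-/- replicates 1 to 3. The share of Rel was 26.5%, 28.0% and 26.1% in wild type and 36.3%, 34.7% and 35.0% in Nfkb2-/-. The share of Nfkb1 was 19.5%, 22.0% and 18.5% in wild type and 22.1%, 27.6% and 27.7% in Nfkb2-/-. By merged exons the genotypes did not overlap in these 3 shares, while those of Rela and Relb overlapped. Shares within a library sum to a fixed total, so a lower share of Nfkb2 raises the combined share of the other 4 by construction. The summed RPKM itself, by merged exons, was 590 ± 10.4 in wild type and 643 ± 51.0 in Nfkb2-/- (SD, n = 3 each), with overlapping libraries. Summed CPM, which is not divided by length, did not overlap. It ran from 3707 to 4016 in wild type and from 4053 to 5032 in Nfkb2-/-.

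The order depends on the length used for Nfkb1, whose merged exons cover 12061 bases while its longest transcript has 4149. By the longest transcript Nfkb1 was the highest member in all 6 libraries, at 343 ± 36.3 RPKM in wild type and 485 ± 94.3 RPKM in Nfkb2-/- (SD, n = 3 each). Rel has 1 annotated transcript, of 7466 bases, and its level was the same by both lengths. Nfkb2 was the lowest member in every Nfkb2-/- library and in no wild-type library by either length. By the longest transcript the shares of Relb did not overlap, at 8.76% to 9.86% in Nfkb2-/- and 9.93% to 11.4% in wild type.

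**Figure D3:**
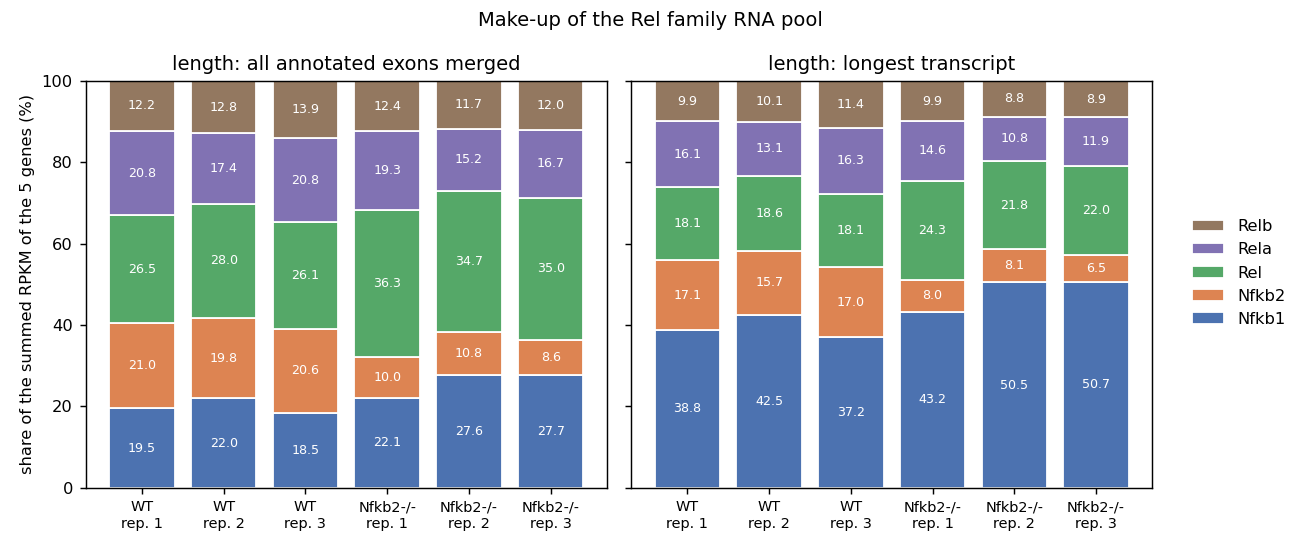
Share of each gene in the summed RPKM of the 5 Rel family genes (y axis, percent) in each library, with gene length as merged exons (left) or the longest transcript (right). On both sides the Nfkb2 segment is smaller in the Nfkb2-/- libraries, 8.60% to 10.8% against 19.8% to 20.96% on the left.

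Ratios within a library do not depend on how libraries are scaled to each other, and their fold between genotypes does not depend on which annotated length is used. They describe RNA and not dimers, and no test was made on them. Relb RNA, per length, was at 1.24, 1.09 and 1.39 times Nfkb2 RNA in Nfkb2-/- replicates 1 to 3 and at 0.584, 0.649 and 0.676 times in wild-type replicates 1 to 3. By this measure Relb RNA exceeded Nfkb2 RNA in every Nfkb2-/- library and in no wild-type library, with a mean ratio 1.95 times as high. The unknown extent of the allele limits this comparison, and whether the remaining Nfkb2 RNA encodes p100 was not tested. The Rela to Nfkb2 ratio was 1.93, 1.41 and 1.95 in Nfkb2-/- and 0.992, 0.881 and 1.01 in wild type. The Rel to Nfkb2 ratio showed the widest separation, with 3.63, 3.21 and 4.07 in Nfkb2-/- and 1.26, 1.41 and 1.27 in wild type, 2.77 times as high on average.

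Among ratios that leave Nfkb2 out, that of the transactivating subunits Rel to Rela was 1.88, 2.27 and 2.09 in Nfkb2-/- and 1.27, 1.61 and 1.25 in wild type, without overlap. The ratio of Rel to Nfkb1, which encode the c-Rel and p50 partners, was 1.64, 1.26 and 1.26 in Nfkb2-/- and 1.36, 1.27 and 1.41 in wild type, and overlapped. The Relb to Rela ratio overlapped as well, with means of 0.709 ± 0.0636 and 0.665 ± 0.0744 (SD, n = 3 each). Relb to Nfkb1 was lower in Nfkb2-/-, at 0.559, 0.425 and 0.433 against 0.626, 0.584 and 0.755, with no overlap.

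**Figure D4:**
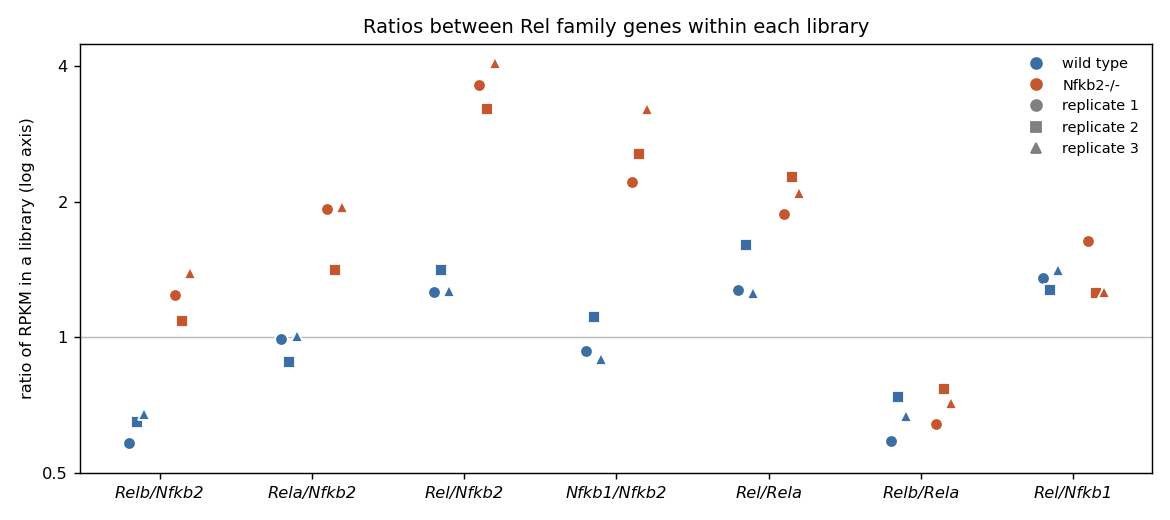
Ratio of RPKM between pairs of Rel family genes in each library (y axis, log scale), wild type in blue and Nfkb2-/- in orange, with symbols for replicate numbers. The 4 ratios over Nfkb2 and the Rel to Rela ratio separate the genotypes, and the Relb to Rela and Rel to Nfkb1 ratios overlap.

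Members also differed in which pattern they followed across the 6 libraries. Likeness was the root mean square difference of log2 CPM, each gene centred on its mean over the 6 libraries, against 8050 genes (protein-coding, mean of at least 10 CPM). The points share libraries and depth, and the values describe these 6 libraries. Of the 10 pairs of members, Rela and Relb had the smallest difference, 0.13, and Rel and Nfkb1 the next, 0.14. By place among all genes compared the order was the other way. Rel was in place 59 for Nfkb1 and Nfkb1 in place 172 for Rel, while Relb was in place 926 for Rela and Rela in place 1481 for Relb, whose profiles are flatter and have more genes near them. Nfkb2 was at 0.74 from Nfkb1 and from Rel, at 0.46 from Rela and at 0.49 from Relb.

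The genes nearest to Nfkb2 were Cd86 (0.089), a costimulatory ligand gene, Ifi47 (0.097), an interferon-induced GTPase gene, and Mettl23 (0.11), a methyltransferase gene, with log2 fold changes of -0.83, -0.98 and -0.90. Since these genes were picked for their likeness to Nfkb2, their difference between genotypes is a description with no test. Cd86 was at 32.9, 34.6 and 32.8 CPM in Nfkb2-/- and at 58.5, 60.5 and 60.1 CPM in wild type. The genes nearest to Rel were Ehbp1l1 (0.025), Tacc1 (0.037) and Zdhhc23 (0.041), and those nearest to Nfkb1 were Kctd12 (0.041), Neu3 (0.081), a sialidase gene, and Chp1 (0.082). Klf13 (0.027), a transcription factor gene, Gars (0.037), a transfer RNA synthetase gene, and Pink1 (0.037), a mitochondrial kinase gene, were nearest to Rela. Tomm40 (0.013), which encodes the mitochondrial import channel, was nearest to Relb and lies 71.9 kb from it on chromosome 7, followed by Zbtb10 (0.031) and Wtap (0.032). With any one library left out, 6 to 9 of these 15 genes remained among the 3 nearest.

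The rest of the NF-kB pathway is given from 4 lists. Of all genes tested, edgeR called 1.42%, 13.6% had an unadjusted edgeR p under 0.05 and DESeq2 called 5.09%. Wild-type replicate 1 bears on all 4 lists, since 9.04% of all genes were called without it. Of 10 I-kappa-B proteins and feedback inhibitors 0 were called by edgeR (1 with an unadjusted p under 0.05, 1 called by DESeq2), with a median log2 fold change of 0.03, against -0.03 over all genes tested. Nfkbie, which encodes I-kappa-B epsilon, was at 297, 276 and 293 CPM in Nfkb2-/- replicates 1 to 3 and at 93.8, 148 and 172 CPM in wild-type replicates 1 to 3. Its genotypes did not overlap (log2 fold change 1.07, edgeR adjusted p = 0.0608, and 0.000676 without wild-type replicate 1). Bcl3, an atypical I-kappa-B protein that binds p50 and p52, had a log2 fold change of -0.25 (edgeR adjusted p = 0.537) and overlapped. With 1 library left out, 0 to 2 of the list were called, the 2 without wild-type replicate 1, where the list's median was -0.08.

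Of 20 upstream kinases and adaptors, edgeR called 1 higher and 0 lower, with a median of 0.01, against 1.01% of all genes tested called higher. Birc2, the ubiquitin ligase cIAP1 that helps to degrade NIK, was at 365, 384 and 342 CPM in Nfkb2-/- and at 135, 196 and 197 CPM in wild type (log2 fold change 1.05, SE 0.172, edgeR adjusted p = 0.0319). Its groups did not overlap. With Y-linked level as the covariate its log2 fold change was 1.01, with a wider SE of 0.298 (edgeR adjusted p = 0.528). That fit called 7 of all genes tested. Traf3, the adaptor that brings cIAP proteins to NIK, was named after its values were seen, at 339, 471 and 435 CPM against 151, 246 and 203 CPM (log2 fold change 1.05, edgeR adjusted p = 0.0592, and 0.0236 with the replicate number as a block). The list had 2 called in the blocked fit, which called 2.17% of all genes. With 1 library left out, 0 to 3 were called, the 3 without wild-type replicate 1, while 0 were called without any other library.

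Of 9 partners and processing factors of p105 and p100, 0 were called by edgeR (1 with an unadjusted p under 0.05, 1 called by DESeq2), with a median of -0.01. Btrc, whose product beta-TrCP marks phosphorylated I-kappa-B and p100 for ubiquitination, was at 16.0, 14.1 and 13.8 CPM in Nfkb2-/- and at 40.2, 24.3 and 22.3 CPM in wild type, without overlap (log2 fold change -0.99, edgeR adjusted p = 0.112). Its DESeq2 adjusted p was 0.00935. Btrc lies on chromosome 19, 774 kb from Nfkb2. Its paralog Fbxw11 had a log2 fold change of 0.26 (edgeR adjusted p = 0.408). Without wild-type replicate 1, 2 of the list were called.

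Of 25 NF-kB target genes, edgeR called 1 higher and 0 lower, with a median of 0.13. Of all genes tested, 1.01% were called higher and 0.405% lower. The called target was Tnfrsf9, the costimulatory receptor 4-1BB, at 831, 882 and 919 CPM in Nfkb2-/- against 392, 419 and 457 CPM in wild type (log2 fold change 1.05, SE 0.137, edgeR adjusted p = 0.0157). Its genotypes were far apart relative to their spread. With Y-linked level as the covariate its log2 fold change was 1.16, with a wider SE of 0.235 (edgeR adjusted p = 0.332). The blocked fit called 2 targets, 1 higher and 1 lower, against 2.17% of all genes. Without wild-type replicate 1 the median was -0.06 and 7 were called (2 higher and 5 lower), against 9.04% of all genes. Without any other library 0 or 1 were called. The B cell markers and the sex-linked genes moved with genotype beside each of these lists, and their part was not tested. The log2 fold change of Nfkb2 was -0.94 with the B cell marker level as a covariate, as without it.

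**Figure D5:**
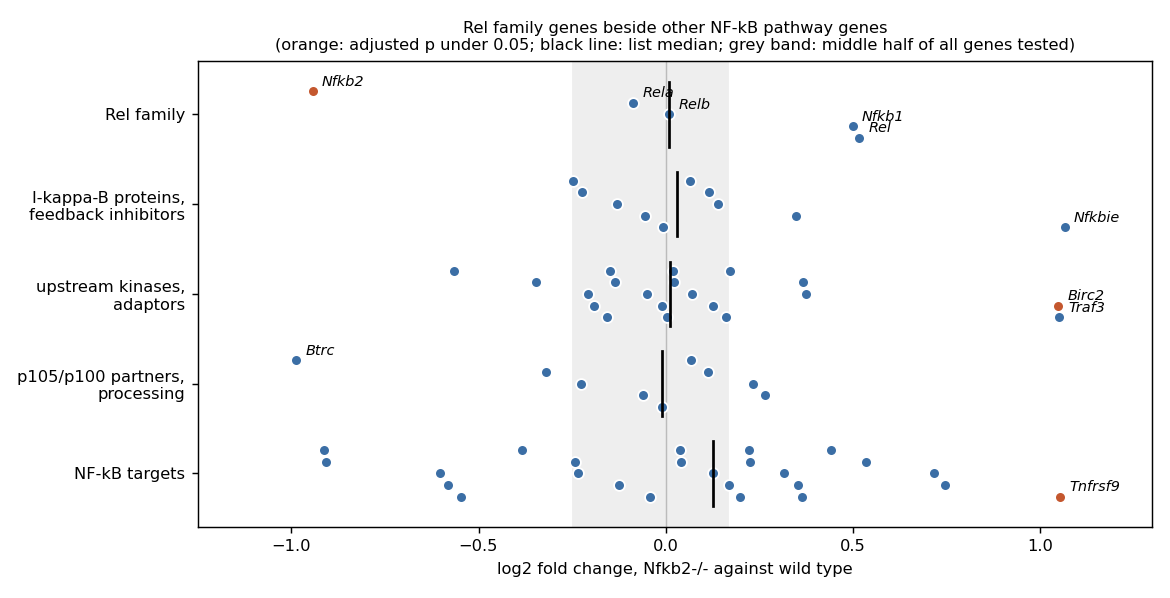
Log2 fold change, Nfkb2-/- against wild type (x axis), of the 5 Rel family genes and of 4 lists of NF-kB pathway genes, 1 point a gene, orange where the edgeR adjusted p was under 0.05, with list medians in black and the interquartile range of all genes tested in grey. Nfkb2 lies at -0.94, near Btrc at -0.99, Rel and Nfkb1 lie at 0.52 and 0.50, and Birc2 and Tnfrsf9 are the called genes of the lists.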

How the data were processed

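RNA was measured in 6 libraries, 3 per genotype. Per the submitters' processing notes, FastQC, HISAT2, HTSeq and DESeq2 and the build GRCm38 were used, with no word on how HTSeq was set. The files the authors deposited hold raw counts, 1 whole number a gene, not normalized. The members, lists and tests were chosen with earlier results of these data known. GENCODE M21 (GRCm38) gave symbols, positions and lengths for 55480 of 55573 identifiers, and RefSeq (GRCm38.p6) the promoter windows, which matched 3 of the 5 members.

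The test was edgeR 4.0.16 (R 4.3.3). Genes passed filterByExpr, as all 5 members did, libraries were scaled by TMM, and the robust quasi-likelihood model held genotype alone. Adjustment was by Benjamini-Hochberg over 13347 genes, with a threshold of 0.05. CPM use TMM-scaled library sizes, and log2 CPM for likeness a prior count of 2. Intervals are 95% intervals of the fit. Named genes were the members, the genes overlapping or next to them, the called members of each list or otherwise the 2 of smallest p, and the 3 genes most like each member. Alternatives used DESeq2 1.42.0 and limma 3.58.1. The code was tested on simulated counts. Every pair of libraries differed by more than sampling noise, with a chi-square of at least 5.82 times its degrees of freedom.

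Replicate numbers are shared between genotypes, and the labels do not say what they mark. After subtracting each genotype's mean, libraries of the same number had correlations of 0.364, 0.267 and 0.111, all over 0.1. Across unlike numbers the values ran from -0.428 to 0.251, the top value joining number 3 of Nfkb2-/- to number 2 of wild type. That value lies above the 0.111 of the number 3 libraries, so these values do not single out a pairing for number 3. The blocked alternative treats libraries of the same number as pairs.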

Additional observations from a re-analysis of the deposited data

How the results depend on the processing

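In all 15 alternatives Nfkb2, Nfkb1, Rel and Rela kept the sign of their log2 fold change, and Relb did in 13; it was -0.039 without Nfkb2-/- replicate 3 and -0.043 without wild-type replicate 1. With each library left out in turn the log2 fold changes ran from -1.03 to -0.90 for Nfkb2, 0.39 to 0.65 for Nfkb1, 0.47 to 0.56 for Rel, -0.16 to -0.02 for Rela and -0.043 to 0.059 for Relb. Nfkb2 was -0.90 and not called with the Y-linked covariate. Rel was 0.52 and called by DESeq2, and with the B cell covariate Rel was 0.54 and Nfkb1 0.53, both called. The cause of these changes was not tested.

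Against 189 genes called, 466 were called with no count filter, 680 by DESeq2, 289 in the fit with the replicate block, 7 with the Y-linked covariate, 3199 with the B cell covariate and 7 to 1234 with a library left out. In that order the upstream list had 2, 2, 2, 0, 5 and 0 to 3 members called (1 in the main comparison), and the targets 3, 3, 2, 0, 11 and 0 to 7 (1). I-kappa-B proteins and feedback inhibitors had 1 called with no count filter, 1 by DESeq2, 2 with the B cell covariate and 0 to 2 with a library left out, and precursor partners the same numbers. The replicate block changed no call among the 5 members (Nfkb2 -0.95, edgeR adjusted p = 0.0332).

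By the longest transcript the shares of the summed RPKM in Nfkb2-/- and wild type were 7.51% and 16.6% for Nfkb2, 48.1% and 39.5% for Nfkb1, 22.7% and 18.3% for Rel, 12.5% and 15.2% for Rela, and 9.19% and 10.5% for Relb. By merged exons with 1 library left out they ran from 9.29% to 10.4% and 20.2% to 20.8% for Nfkb2, 24.9% to 27.6% and 19.0% to 20.8% for Nfkb1, 34.8% to 35.6% and 26.3% to 27.2% for Rel, 16.0% to 17.99% and 19.1% to 20.8% for Rela, and 11.9% to 12.2% and 12.5% to 13.4% for Relb. Of the 15 genes most like a member, 15 remained with RLE scaling and 6 to 9 with a library left out, alternatives chosen after seeing the data. Counting error was at most 1.64% for any member in either genotype.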
